A study of Mus musculus with 10 samples.

Results

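Transcripts of the respiratory chain were followed in mature B cells of mouse bone marrow, with the genes carried by the nucleus set against those carried by the mitochondrial genome. The members were the protein-coding rows whose mouse (GRCm38) symbol begins with mt-, Nduf, Uqcr, Atp5, Cox4, Cox5, Cox6, Cox7 or Cox8, together with Sdha, Sdhb, Sdhc, Sdhd and Cycs. The muscle form Cox6a2 was left out of the list. The rule uses symbols only, but it was set with earlier results of these data known. Of the 14450 genes listed, 101 were members, 88 of them nuclear and 13 mitochondrial (mt-). The 13 mt- members were every listed row of the mitochondrial chromosome. The tissue-restricted forms Cox4i2, Cox7a1, Cox7b2, Cox8b, Cox8c and Ndufa4l2 were not analysed here.

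The cells came from the bone marrow of Chat-GFP mice in steady state, a strain in which green fluorescence reports the Chat locus, which encodes the enzyme that makes acetylcholine. Mature B cells were sorted by flow cytometry into a Chat+ and a Chat- population, and RNA of each was sequenced as 5 libraries. Both populations carry the same reporter, had no treatment and were split by its signal, and the labels give no age. Whether those 5 stem from different mice is not stated in the labels, so a p here covers only library-to-library spread, which may be technical. Chat itself was listed at 79.6, 71.9, 111, 59.9 and 31.1 CPM in Chat+ replicates 1 to 5 and 7.93, 5.15, 19.7, 3.54 and 1.17 CPM in Chat- replicates 1 to 5, and the groups did not overlap.

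The chain moves electrons through complexes I to IV of the inner mitochondrial membrane, and ATP synthase, often called complex V, uses the proton gradient they build. Complexes I, III, IV and V mix subunits of both genomes, whereas complex II and the mobile carrier cytochrome c are wholly nuclear. The mitochondrial genome is transcribed as long precursors from both strands that are then cut into single transcripts, whereas each nuclear subunit has its own promoter. Resting lymphocytes draw much of their ATP from this machinery.

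Values are CPM (counts per 1000000 counts of the library over the listed genes), computed from log2 values. The depth estimated from the lowest values was 21530000 to 30060000 reads per library, lowest in Chat- replicate 4. The library Chat- replicate 4 stood apart: 1213 genes had the table's lowest value there, against 62 to 682 in the other 9 libraries, where Chat+ replicates 3 and 5 (682 and 458) came next. B-cell markers were high in every library, Chat- replicate 4 included: Cd79a, a signalling chain of the B-cell receptor, was at 1854 to 2278 CPM over the 10 libraries, and Ms4a1, which encodes CD20, at 1390.2 to 2391 CPM. The 8 monocyte and macrophage markers summed to 201.7 CPM in Chat- replicate 4, with Lyz2 leading at 87.4 CPM. Of the 8, 6 were highest in that library, where 22.1% of all genes were. The sum of the 8 was 59.2 to 103.7 CPM in Chat+ and 45.4 to 60.4 CPM in the other Chat- libraries. Without Chat- replicate 4, 7 of the 8 were higher in Chat+, where 49.6% of all genes were. With limma 4 then had an unadjusted p under 0.05, where 7.32% of all genes did, and 0 had an adjusted p under 0.05. In Chat- replicate 4 other markers also stood out. The 7 listed stromal and endothelial markers summed to 406 CPM there and to 269.6 to 348.5 CPM elsewhere. Of the 7, 5 were highest there, with Col1a1 at 110.8 CPM (7.59 to 42.4 CPM elsewhere) and Col1a2 at 99.2 CPM, and Lepr was at 0. Pecam1, the most abundant of the list, was lowest there at 177 CPM and at 247 to 284 CPM elsewhere. It makes up much of the sum, so the sum is a poor guide to the rest of the list. The endothelial markers Cdh5 and Kdr reached at most 5.44 and 8.36 CPM over the 10 libraries. The differences between groups below are therefore given with and without Chat- replicate 4. Leaving it out does not level the macrophage markers between the groups, nor those of some other cell types. In that fit 6 of 7 stromal and endothelial and 4 of 5 plasma cell markers were higher in Chat+. Of the plasmacytoid dendritic cell markers 6 of 7 were lower in Chat+, and of the mature B-cell markers 8 of 10. With limma 2, 2, 3 and 1 of these 4 lists had an unadjusted p under 0.05, and 0 had an adjusted p under 0.05.

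The summed mt- level did not separate Chat+ from Chat- cells, and 1 library carried nearly all of the difference between the group means. The 13 mt- members summed to 23449.9, 22710.3, 34497, 24140.3 and 38521 CPM in Chat+ replicates 1 to 5 and 24105, 25188, 29122, 118704 and 36790.3 CPM in Chat- replicates 1 to 5. Chat- replicate 4 held 11.9% of its CPM in them, and the other 9 libraries 2.27% to 3.85%, with Chat+ and Chat- interleaved. Averaged by group (mean ± SD, n = 5 each), Chat+ had 28664 ± 7319 CPM and Chat- had 46782 ± 40512 CPM, a Chat+ over Chat- ratio of 0.613. Without Chat- replicate 4 the Chat- mean was 28801 ± 5746 CPM (n = 4) and the ratio 0.995, smaller than the spread in either group. Within both groups replicate 5 had a high level (38521 and 36790.3 CPM), as did Chat+ replicate 3. In bulk RNA, fewer cells of a type and less RNA per cell cannot be told apart, and the part played by the macrophage and stromal transcripts of Chat- replicate 4 was not tested.

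The nuclear members were far steadier. The 88 nuclear members summed to 6659, 6776, 6261, 6133 and 6508 CPM in Chat+ replicates 1 to 5 and 6723, 6154, 5942, 4491 and 6369 CPM in Chat- replicates 1 to 5. Chat- replicate 4 was the lowest, and the other 9 libraries lay between 5942 and 6776 CPM. The means were 6468 ± 268 CPM in Chat+ and 5936 ± 858 CPM in Chat-, a ratio of 1.09, and without Chat- replicate 4 the Chat- mean was 6297 ± 333 CPM and the ratio 1.03. Since CPM values of a library share 1 total, a large mt- share lowers all other values. Counted per 1000000 of the nuclear genes alone, the nuclear sum of Chat- replicate 4 was 5096, and that of the other 9 libraries 6120.3 to 6934. On that scale Chat- replicate 4 stood at 0.786 of the mean of the other Chat- libraries, against 0.713 in CPM. The mt- sum over the nuclear sum was 3.52, 3.35, 5.51, 3.94 and 5.92 in Chat+ replicates 1 to 5 and 3.59, 4.09, 4.90, 26.4 and 5.78 in Chat- replicates 1 to 5. Chat- replicate 4 was 4.47 times the highest of the other libraries, and the Chat+ over Chat- ratio of the group means was 0.497 with it and 0.969 without it.

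**Figure D1:**
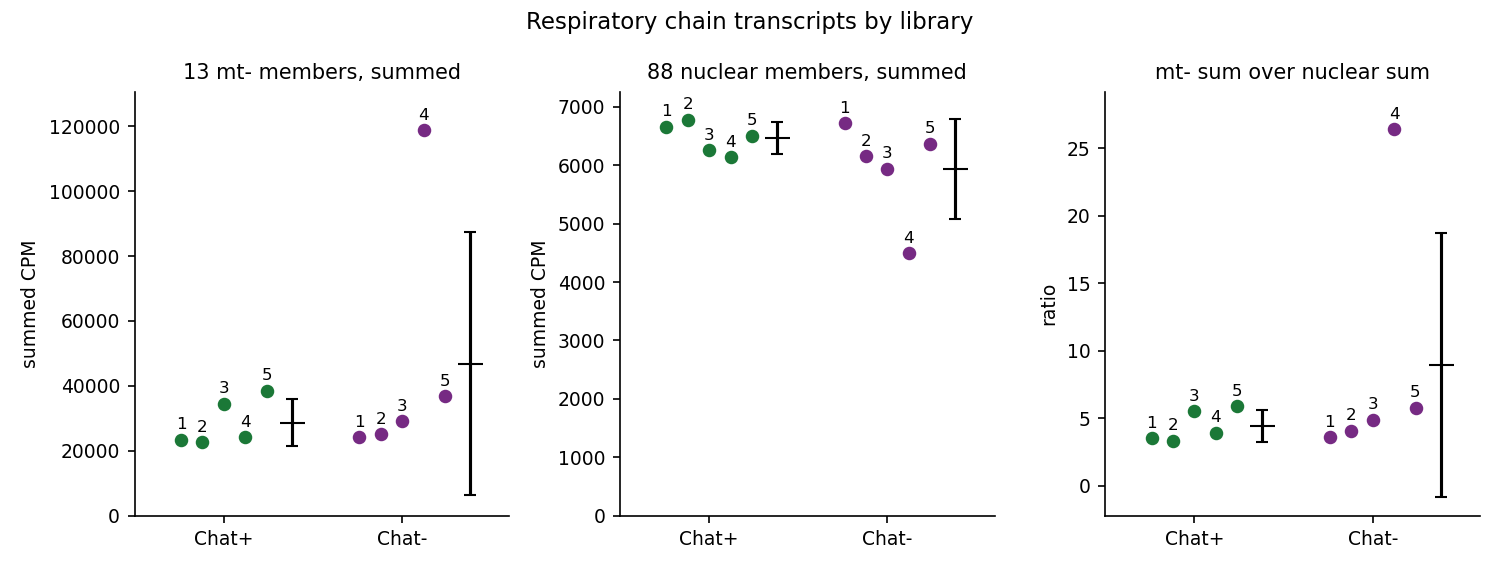
Summed CPM of the 13 mt- members (left), of the 88 nuclear members (middle) and their ratio (right) in each library; points are libraries labelled by replicate number, and the bars show the mean ± SD of the 5 libraries of a group. Chat- replicate 4 is the highest for the mt- sum (118704 CPM) and the ratio (26.4) and the lowest for the nuclear sum (4491 CPM), while the other 9 libraries of both groups overlap.

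The mitochondrial genes differed among themselves by more than any difference between groups. Per kilobase of transcript, and averaged over the 9 libraries other than Chat- replicate 4, the mt- members ranged from 40.2 CPM per kb for mt-Nd6 to 6728 CPM per kb for mt-Co2. 12 of the 13 lay above the highest nuclear member, Cox4i1, at 338 CPM per kb, and the nuclear median was 58.8 CPM per kb. mt-Nd6, a membrane subunit of complex I, is the one member read from the opposite strand to the other mt- genes. It was listed at 23.4, 26.5, 22.95, 13.1 and 30.5 CPM in Chat+ and 17.6, 17.7, 17.7, 55.9 and 18.5 CPM in Chat-. With all libraries it had the smallest log2 difference, Chat+ minus Chat-, of the 13 mt- members, -0.0025 (SE 0.33), and without Chat- replicate 4 the largest, 0.33, where the other 12 ran from -0.23 to 0.064.

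The mitochondrial core of complex IV, cytochrome c oxidase, consists of mt-Co1, which holds the oxygen-reducing centre, mt-Co2, which takes electrons from cytochrome c, and mt-Co3. mt-Co1 (chrM:5328-6872) was listed at 5201, 5037, 7735, 5789 and 9132 CPM in Chat+ and 5161, 5664, 6702, 19107 and 9047 CPM in Chat-. mt-Co2 (chrM:7013-7696) was listed at 3988, 4199, 5391, 4078 and 5527 CPM in Chat+ and 4291, 4176, 4709.8, 16188 and 5059.8 CPM in Chat-. mt-Co3 (chrM:8607-9390) was listed at 3189, 3195, 4467, 3089.8 and 5032 CPM in Chat+ and 3699.5, 3571, 3709, 15084 and 4544 CPM in Chat-. In all 3 Chat- replicate 4 was far above the rest, and the other Chat- libraries lay among the Chat+ ones. The log2 differences were -0.33, -0.35 and -0.45, with 95% intervals of -1.07 to 0.41, -1.08 to 0.38 and -1.24 to 0.34, and -0.021, 0.014 and -0.056 without that library. mt-Cytb (chrM:14145-15288), the cytochrome b of complex III and its one mitochondrial subunit, was listed at 2192, 2046, 3194, 2292 and 3456 CPM in Chat+ and 2161, 2355, 2737, 11639.9 and 3448 CPM in Chat-. Chat- replicate 4 was again far above the rest, with a log2 difference between groups of -0.46 (SE 0.39, adjusted p = 0.999) with limma, and -0.031 without Chat- replicate 4.

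ATP synthase has 2 mitochondrial subunits, mt-Atp6, part of the proton channel, and mt-Atp8, a small membrane subunit. mt-Atp6 (chrM:7927-8607) was listed at 3643, 3488, 5614, 3663 and 6074 CPM in Chat+ and 3660.0, 3958, 4519.8, 22556 and 5722 CPM in Chat-. mt-Atp8 (chrM:7766-7969) was listed at 254, 143, 312, 219 and 358 CPM in Chat+ and 216, 222, 251, 2684 and 427 CPM in Chat-. Chat- replicate 4 stood highest for both, and mt-Atp8 was the mt- member that differed most there, 3.32 on the log2 scale above the mean of the other Chat- libraries, against 2.36 for mt-Atp6. The log2 differences between groups were -0.48 and -0.79, and -0.011 and -0.13 without that library. The 2 genes share 43 bases of the same strand (chrM:7927-7969), so a read from that stretch can come from either, and the whole mt-Atp8 gene of the GENCODE M21 (GRCm38) annotation is shown with the shared bases in capitals. 
mt-Atp8: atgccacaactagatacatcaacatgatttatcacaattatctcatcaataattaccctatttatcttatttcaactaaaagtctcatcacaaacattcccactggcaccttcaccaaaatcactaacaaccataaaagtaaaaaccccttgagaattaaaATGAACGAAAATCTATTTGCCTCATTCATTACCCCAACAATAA

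The 7 mitochondrial subunits of complex I form the membrane arm that pumps protons. mt-Nd1 (chrM:2751-3707) was listed at 1379, 1342, 2118, 1439 and 2356 CPM in Chat+ and 1447, 1561, 1839, 7874 and 2309.6 CPM in Chat-. mt-Nd2 (chrM:3914-4951) was listed at 850.0, 799.6, 1391, 897 and 1556 CPM in Chat+ and 812, 906, 1155, 6627 and 1595 CPM in Chat-. mt-Nd4 (chrM:10167-11544) was listed at 1512, 1261, 2405, 1404 and 2368 CPM in Chat+ and 1450.0, 1554, 1994, 9208 and 2041 CPM in Chat-. These 3 followed the summed level, with Chat- replicate 4 highest and Chat+ replicates 3 and 5 and Chat- replicate 5 above the remaining 6 libraries in mt-Nd1 and mt-Nd2. mt-Nd5 (chrM:11742-13565) was listed at 989.6, 989, 1544, 1072 and 2138 CPM in Chat+ and 947, 948, 1179.8, 5739 and 2136 CPM in Chat-. mt-Nd4l (chrM:9877-10173), which overlaps mt-Nd4 by 7 bases, was listed at 115, 92.8, 142, 101 and 244 CPM in Chat+ and 115, 116, 149, 1133 and 257 CPM in Chat-. mt-Nd3 (chrM:9459-9806) was listed at 114, 91.9, 161, 83.2 and 251 CPM in Chat+ and 127, 139, 158, 807 and 185 CPM in Chat-. The log2 differences of the 6 genes ran from -0.79 (mt-Nd4l) to -0.38 (mt-Nd5), with SEs of 0.40 to 0.54. Without Chat- replicate 4 they ran from -0.23 (mt-Nd3) to 0.064 (mt-Nd5).

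Across the 13 mt- members, 0 passed the test (limma, adjusted p below 0.05) and 0 had an unadjusted p under 0.05, where 0.00692% and 4.51% of all 14450 genes did. The median log2 difference was -0.48, with 0 of 13 higher in Chat+, and it was -0.03 with 3 of 13 higher without Chat- replicate 4. Over all genes the median was 0.04 with 57.0% higher, and -0.0017 with 49.6% higher without that library. The mt- members share 1 genome and 1 set of precursors, so their differences are not separate observations.

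The makeup of the mt- pool was more even than its size, which the share of each gene in the summed mt- level shows. Over the 9 other libraries mt-Co1 held 21.4% to 24.6% of the pool, mt-Co2 13.8% to 18.5%, mt-Atp6 15.2% to 16.3% and mt-Cytb 8.96% to 9.49%. In Chat- replicate 4 the shares of 8 genes were above the range of the other 9 libraries, 3 were below it and 2 inside. mt-Co1 held 16.1% there, mt-Co2 13.6% and mt-Nd6 0.0471% (range elsewhere 0.0502% to 0.117%), the 3 below. mt-Atp8 held 2.26% (elsewhere 0.631% to 1.16%), mt-Nd4l 0.955% (0.409% to 0.699%), mt-Nd2 5.58% (3.37% to 4.33%) and mt-Atp6 19.00%, all above. The mt- rows of that library were thus not scaled up evenly. Replicate 5 of both groups had the highest mt-Nd5 shares, 5.55% in Chat+ and 5.80% in Chat-, against 3.76% to 4.48% in the 7 other libraries besides Chat- replicate 4.

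**Figure D2:**
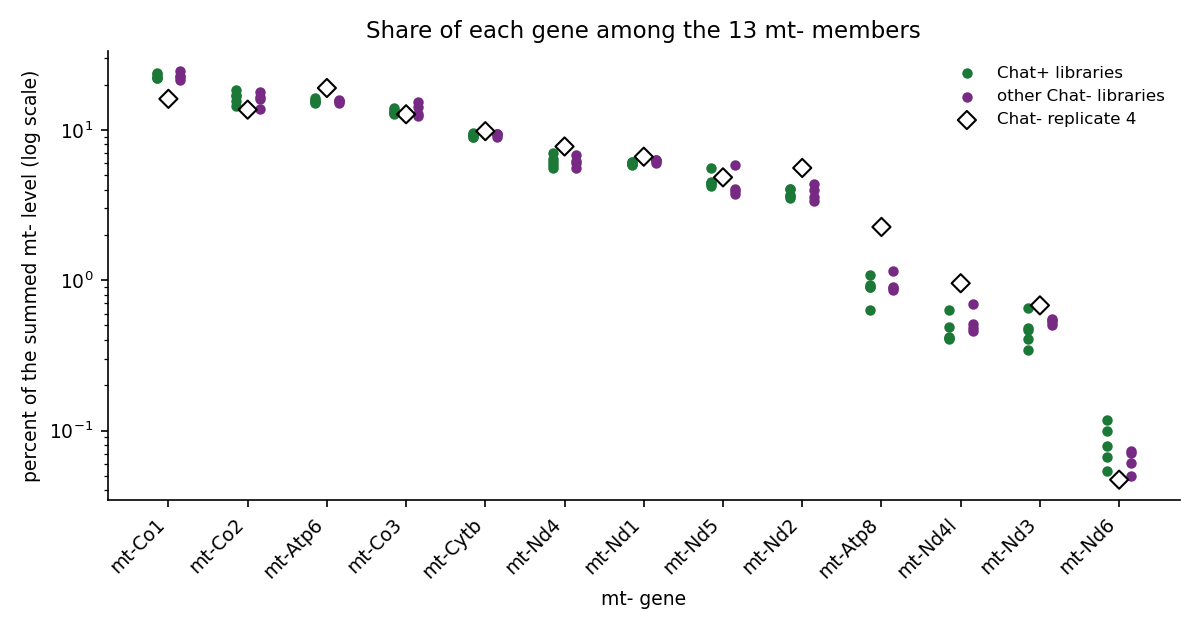
Percent of the summed mt- level held by each mt- gene (log scale), for the 5 Chat+ libraries, the 4 other Chat- libraries and Chat- replicate 4 (open diamond). Chat+ and the other Chat- libraries overlap for each gene, whereas Chat- replicate 4 sits below them for mt-Co1 (16.1%) and above them for mt-Atp8 (2.26%).

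Several mt- genes have near-identical copies in the nuclear genome, and the table lists 5 of them, all in 1 block of chromosome 1 (chr1:24611535-24616197, minus strand). They are annotated as unprocessed pseudogenes, and 97.2% to 100% of the 31-base words of each are found in mt- transcripts, so reads of the pair cannot be assigned with certainty. The mt-Co1 copy Gm29216 was listed at 1992 to 3007 CPM in the other 9 libraries and 6249 CPM in Chat- replicate 4. The mt-Nd3 copy Gm28438 was listed at 162 to 234 CPM in the other 9 libraries and 1503 CPM in Chat- replicate 4. Both rows were thus, like the mt- genes, highest in Chat- replicate 4, and Gm28438 held 44.6% to 67.6% of the summed level of itself and mt-Nd3. The copies of mt-Atp6 (Gm10925), mt-Nd4 (Gm28439) and mt-Nd4l (Gm10222) ran from 0 to 171, 472 and 33.6 CPM in the other 9 libraries, and were at 1058, 38.5 and 70.9 CPM in Chat- replicate 4. Adding all 5 to the mt- sum left the ratio of the group means at 0.620, and at 0.997 without Chat- replicate 4. Words of 31 bases shared with other genes, listed or not, made up 100% of mt-Co2, 99.9% of mt-Co3, 99.5% of mt-Atp6 and 98.9% of mt-Nd4l. For mt-Co1 and mt-Nd4 they made up 63.9% and 62.8%. The levels per kb and the pool shares of these genes carry the same limit. mt-Nd3 and Gm28438 share an unbroken run of 342 bases, and 98.1% of the 31-base words of mt-Nd3 occur in other genes. The first 300 bases of mt-Nd3 (chrM:9459-9758, plus strand, GENCODE M21) are shown to make this plain, with the bases of that run in capitals. 
mt-Nd3: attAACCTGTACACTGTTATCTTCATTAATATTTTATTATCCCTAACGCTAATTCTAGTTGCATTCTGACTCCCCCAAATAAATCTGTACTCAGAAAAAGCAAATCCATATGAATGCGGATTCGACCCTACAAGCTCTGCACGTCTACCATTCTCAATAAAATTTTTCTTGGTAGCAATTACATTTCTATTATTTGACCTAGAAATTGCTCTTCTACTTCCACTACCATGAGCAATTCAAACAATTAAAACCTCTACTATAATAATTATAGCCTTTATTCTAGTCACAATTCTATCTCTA

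Among the nuclear members small positive differences prevailed, and their excess over other genes was smaller without Chat- replicate 4. 81 of 88 were higher in Chat+ by the fitted log2 difference, with a median of 0.12, where 57.0% of all genes were higher with a median of 0.04. With TMM scaling 71 of 88 were higher (median 0.07, against 48.9% of all genes), and with library quality weights 63 (median 0.05, against 50.2%). Without Chat- replicate 4, 61 were higher (median 0.05, against 49.6%). 0 of 88 passed with limma, where 0.00692% of all genes (1 of 14450) did, and 0 of 88 without Chat- replicate 4, where 0.0415% did. 2 of 88 had an unadjusted p under 0.05, both higher in Chat+, where 4.51% of all genes did and 3.49% were also higher. In 0 of the 101 members did every Chat+ library lie above every Chat- library, or below, where 1.12% and 0.304% of all genes had such groups, and the count was also 0 without Chat- replicate 4 (2.35% and 0.941% of all genes).

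By complex, 42 of 44 members of complex I were higher in Chat+ (median 0.13), all 4 of complex II (0.09), 7 of 8 of complex III (0.07), 12 of 13 of complex IV (0.10) and 16 of 18 of complex V (0.17). Without Chat- replicate 4 these counts were 27 of 44 (median 0.03), 1 of 4 (-0.03), 6 of 8 (0.06), 12 of 13 (0.09) and 14 of 18 (0.09). Over all genes 57.0% were higher with all libraries (median 0.04) and 49.6% without Chat- replicate 4 (median -0.0017). The counts of complexes I and II differed most between the 2 fits, and that of complex IV was the same.

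**Figure D3:**
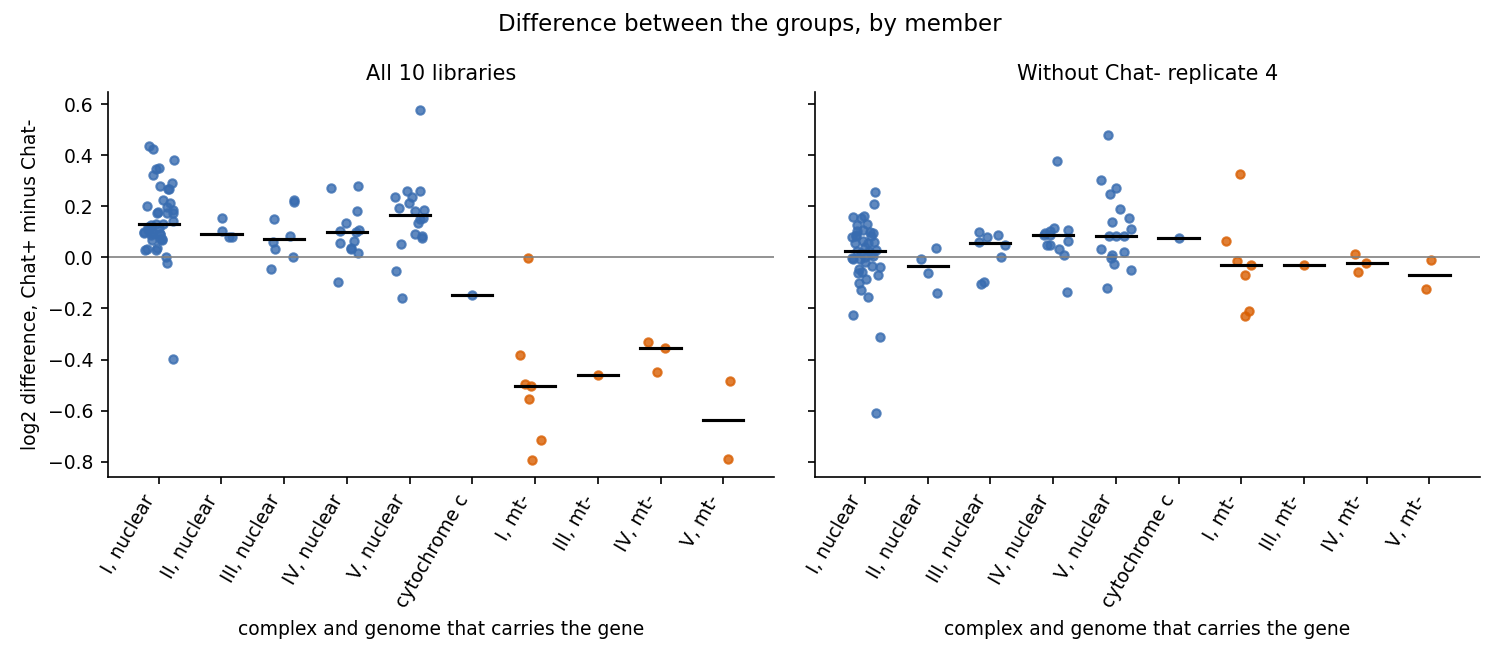
Fitted log2 difference, Chat+ minus Chat-, of each member by complex and genome (blue nuclear, orange mt-) with all 10 libraries (left) and without Chat- replicate 4 (right); black lines are medians. The mt- genes lie at or below 0 on the left and around 0 on the right, and the median of the nuclear complex I genes goes from 0.13 to 0.03.

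Complex I takes electrons from NADH, and its nuclear members include 7 core subunits, 29 accessory subunits and 8 Ndufaf assembly factors. Ndufv1 (ENSMUSG00000037916, chr19:4007384-4012806), the core subunit that binds NADH, was listed at 76.00, 68.2, 52.8, 69.3 and 44.02 CPM in Chat+ and 71.4, 71.9, 72.3, 25.6 and 68.9 CPM in Chat-. The 4 other Chat- libraries lay within 68.9 to 72.3 CPM, Chat- replicate 4 was far below them, and Chat+ replicates 3 and 5 were the next lowest. Its log2 difference was 0.069 (SE 0.28, adjusted p = 0.999) with limma, and -0.23 without Chat- replicate 4. The iron-sulphur core subunit Ndufs1 (ENSMUSG00000025968, chr1:63143596-63176833) was listed at 87.5, 89.02, 76.7, 80.3 and 83.8 CPM in Chat+ and 76.1, 81.98, 88.1, 76.6 and 69.6 CPM in Chat-, so that Chat- replicate 4 was not its lowest library. Its log2 difference was 0.091 (SE 0.094, adjusted p = 0.999) with limma, and 0.083 without that library. The accessory subunit Ndufa8 (ENSMUSG00000026895, chr2:36036326-36049406), which lies on the intermembrane side, was listed at 49.98, 46.9, 37.4, 38.9 and 40.5 CPM in Chat+ and 45.4, 36.5, 32.8, 14.5 and 38.3 CPM in Chat-. Its log2 difference of 0.44 (SE 0.26, adjusted p = 0.999) with limma was the largest of the accessory subunits, but without Chat- replicate 4 it was 0.16 and that of Ndufc2 was larger, at 0.21. Ndufb11 (ENSMUSG00000031059, chrX:20615326-20617619), an X-linked accessory subunit, was listed at 97.7, 96.04, 99.2, 91.3 and 88.7 CPM in Chat+ and 86.8, 95.6, 76.3, 78.7 and 82.1 CPM in Chat-, with a log2 difference of 0.18 (SE 0.091, adjusted p = 0.999) with limma, and 0.15 without Chat- replicate 4. Chat+ replicates 1 to 5 lay above all Chat- libraries but replicate 2.

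Ndufaf2 (ENSMUSG00000068184, chr13:108002715-108158623), an assembly factor of complex I that leaves the finished enzyme, was the nuclear member with the lowest difference. It was listed at 6.22, 5.44, 5.42, 4.18 and 7.11 CPM in Chat+ and 9.62, 10.7, 6.84, 4.06 and 7.78 CPM in Chat-. Chat- replicate 4 was the lowest library, and 3 of the 4 other Chat- libraries were above all Chat+ ones. The log2 difference was -0.40 (SE 0.29, adjusted p = 0.999) with limma, and -0.61 without Chat- replicate 4 (adjusted p = 0.554 with limma, unadjusted p = 0.0213), the one member under 0.05 before adjustment in that fit, where 7.32% of all genes were. At 4.06 to 10.7 CPM it is among the lower members.

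Complex II, succinate dehydrogenase, feeds electrons from the citric acid cycle. Sdha (ENSMUSG00000021577, chr13:74322254-74350280), its flavin subunit, was listed at 279.7, 273, 211, 291 and 231 CPM in Chat+ and 282, 282, 284, 131 and 275 CPM in Chat-. Sdhb (ENSMUSG00000009863, chr4:140961203-140979193), its iron-sulphur subunit, was listed at 67.3, 80.2, 70.7, 70.7 and 74.3 CPM in Chat+ and 69.97, 73.2, 71.3, 41.9 and 77.1 CPM in Chat-. In both the 4 other Chat- libraries were close together, and Chat- replicate 4 lay below every other library. The log2 differences were 0.081 (SE 0.20, adjusted p = 0.999) and 0.15 (SE 0.15, adjusted p = 0.999) with limma, and -0.14 and -0.0066 without Chat- replicate 4. The summed level of the 4 subunits was 462 ± 3.61 CPM in the 4 other Chat- libraries, 438 ± 34.1 CPM in Chat+ (mean ± SD, n = 5) and 248.7 CPM in Chat- replicate 4.

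Complex III passes electrons from ubiquinol to cytochrome c. Uqcrc1 (ENSMUSG00000025651, chr9:108936633-108949623), a large core subunit, was listed at 143, 147, 127, 142 and 123 CPM in Chat+ and 149, 148, 139, 103 and 146 CPM in Chat-, and its groups were nearly equal, with a log2 difference of 0.0033 (95% interval -0.25 to 0.25) that turned to -0.04 with TMM scaling and to -0.096 without Chat- replicate 4. Uqcrfs1 (ENSMUSG00000038462, chr13:30540308-30545362), the Rieske iron-sulphur protein, was listed at 82.9, 74.9, 69.2, 69.1 and 85.7 CPM in Chat+ and 80.8, 66.6, 66.02, 47.6 and 71.2 CPM in Chat-. Its groups overlapped apart from Chat- replicate 4, and its log2 difference was 0.22 (SE 0.14, adjusted p = 0.999) with limma and 0.10 without that library. Uqcrq, a small subunit, had the lowest difference of the nuclear subunits of the complex, at -0.045 (SE 0.14), and -0.10 without Chat- replicate 4.

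In complex IV the nuclear subunits surround the mitochondrial core, and several exist in tissue forms. Cox4i1 (ENSMUSG00000031818, chr8:120668222-120674207), the widely expressed form of subunit 4 and the highest nuclear member per kb, was listed at 291, 296, 225, 260.4 and 238 CPM in Chat+ and 293, 242, 217, 112 and 262 CPM in Chat-. Chat- replicate 4 was at 0.443 of the mean of the other Chat- libraries, and the other 9 libraries overlapped. Its log2 difference was 0.28 (SE 0.22, adjusted p = 0.999) with limma, and 0.047 without Chat- replicate 4. Cox5a (ENSMUSG00000000088, chr9:57521274-57532426) did the opposite in that library: it was listed at 83.2, 88.4, 78.2, 66.2 and 74.4 CPM in Chat+ and 89.3, 67.2, 65.8, 95.9 and 70.6 CPM in Chat-, highest in Chat- replicate 4. Its log2 difference was 0.017 (SE 0.13), -0.03 with TMM scaling and 0.097 without Chat- replicate 4. Of the broadly expressed forms, Cox6a1 stood at 92.7 ± 6.31 CPM in Chat+ and 84.4 ± 6.62 CPM in Chat- (mean ± SD, n = 5 each), Cox7a2 at 48.99 ± 6.87 CPM in Chat+ and 46.7 ± 4.71 CPM in Chat- (mean ± SD, n = 5 each) and Cox8a at 85.2 ± 13.3 CPM in Chat+ and 82.5 ± 8.36 CPM in Chat- (mean ± SD, n = 5 each). Their log2 differences were 0.14, 0.064 and 0.037, and 0.10, 0.12 and 0.087 without Chat- replicate 4, and that of Cox8a was -0.0058 with TMM scaling. Cox7a2l, a factor that joins complexes III and IV into supercomplexes, was at 287 ± 18.9 CPM in Chat+ and 258 ± 53.03 CPM in Chat- (mean ± SD, n = 5 each), and Ndufa4, now placed in complex IV despite its name, at 83.5 ± 10.1 CPM in Chat+ and 77.97 ± 10.2 CPM in Chat- (mean ± SD, n = 5 each). Their log2 differences were 0.18 and 0.098, and 0.047 and 0.066 without that library. The testis form Cox6b2 was barely detected, at 0.509 to 3.20 CPM, where the offset in the logarithms, 0.1148 CPM, is worth 3 reads at the mean depth.

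ATP synthase held the nuclear members with the highest CPM and both of those with an unadjusted p under 0.05. Atp5b (ENSMUSG00000025393, chr10:128083273-128090391), the catalytic beta subunit, was listed at 549, 542, 478, 573 and 633 CPM in Chat+ and 512, 550.0, 553, 281 and 603 CPM in Chat-. Atp5a1 (ENSMUSG00000025428, chr18:77773729-77782869), the alpha subunit, was listed at 502, 511, 483, 512 and 555 CPM in Chat+ and 493, 497, 492, 285 and 536 CPM in Chat-. Apart from Chat- replicate 4, which was far the lowest in both, the libraries of the 2 groups overlapped. The log2 differences were 0.19 (SE 0.18, adjusted p = 0.999) and 0.19 (SE 0.16, adjusted p = 0.999) with limma, and -0.0025 and 0.022 without that library. Atp5s (ENSMUSG00000054894, chr12:69724950-69744660), also called coupling factor B, was listed at 9.02, 7.64, 10.2, 6.81 and 5.58 CPM in Chat+ and 5.96, 6.20, 6.34, 3.86 and 3.83 CPM in Chat-. Its difference of 0.58 (SE 0.26, adjusted p = 0.999) with limma was the largest of the 88, and the unadjusted p was 0.0482 (0.0795 without Chat- replicate 4, with a difference of 0.48). Chat+ replicate 5 lay below 3 of the Chat- libraries, so the groups overlapped.

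Atp5o, the stalk subunit known as OSCP, has 2 rows with overlapping positions. The first row (ENSMUSG00000022956, chr16:91925214-91931687) was listed at 74.8, 97.5, 78.8, 85.4 and 108 CPM in Chat+ and 75.2, 69.6, 67.5, 71.4 and 85.4 CPM in Chat-. Its log2 difference was 0.26 (SE 0.12, adjusted p = 0.999) with limma (unadjusted p = 0.0489), and 0.25 without Chat- replicate 4. The other row (ENSMUSG00000116933, chr16:91684398-91926982) shares 94.0% of its 31-base words with other genes, and reads could be split between the rows. It was listed at 21.02, 15.4, 21.7, 12.5 and 15.5 CPM in Chat+ and 18.5, 18.6, 18.1, 17.6 and 14.9 CPM in Chat-, with a log2 difference of -0.053 (SE 0.18), and -0.050 without Chat- replicate 4. Of the stalk subunits, Atp5c1 (gamma) was listed at 102, 137, 140.0, 109.8 and 144 CPM in Chat+ and 103, 108, 103, 102 and 126 CPM in Chat-, and Atp5e (epsilon) at 133, 139, 135, 109.5 and 133 CPM in Chat+ and 135, 108, 104, 77.5 and 126 CPM in Chat-. The groups overlapped in both, with log2 differences of 0.21 (SE 0.12, adjusted p = 0.999) and 0.26 (SE 0.14, adjusted p = 0.999) with limma, and 0.19 and 0.14 without Chat- replicate 4. Atp5k, the e subunit, was lower in Chat+, -0.16 (SE 0.14, and -0.12 without Chat- replicate 4), and was highest of all libraries in Chat- replicate 4, at 41.9 CPM.

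Cycs encodes cytochrome c, which carries electrons between complexes III and IV and, once released into the cytosol, starts caspase activation. Cycs (ENSMUSG00000063694, chr6:50562563-50566538) was listed at 13.1, 13.5, 20.6, 13.4 and 18.98 CPM in Chat+ and 19.02, 13.2, 15.5, 32.1 and 12.4 CPM in Chat-. It was the nuclear member that stood highest in Chat- replicate 4, at 2.14 times the mean of the other Chat- libraries. Its log2 difference between groups was -0.15 (SE 0.26, adjusted p = 0.999) with limma, and 0.075 without that library. 31.8% of its 31-base words are also found in other genes, among them the listed copies Gm10053, Gm13772 and Gm10108, which were chosen after their values were seen. The sum of the 4 rows was 57.04, 58.5, 62.2, 50.98 and 61.5 CPM in Chat+ and 61.6, 57.99, 54.7, 57.1 and 55.5 CPM in Chat-. On that sum Chat- replicate 4 lay inside the range of the others, and the highest library was 1.22 times the lowest, against 2.597 times for Cycs alone, which describes rows picked after the fact and tests nothing. Cox7c, a small subunit of complex IV with 55.7% of its words shared, was listed at 28.8, 28.6, 15.8, 23.9 and 8.25 CPM in Chat+ and 25.6, 26.2, 20.1, 18.4 and 14.5 CPM in Chat-. Chat+ replicate 5 was the lowest by far. With the copies Gm10012 and Gm12338, chosen in the same way, Chat+ replicate 5 summed to 76.8 CPM. Chat+ replicate 4 was near it at 75.5 CPM and Chat- replicate 3 at 74.2 CPM. On that sum Chat- replicate 4 was the lowest, at 45.2 CPM. The highest library, at 95.6 CPM, was 2.12 times the lowest, against 3.49 times for Cox7c alone, which again only describes picked rows. Atp5g2, an ATP synthase c-ring subunit with 87.7% of its words shared, and its copy Gm10175 summed to 70.2 to 123.7 CPM, a highest over lowest of 1.76 against 2.74 for Atp5g2 alone, so that sum was less even than that of Cycs. Since part of their sequence occurs in other rows, reads of these 3 members cannot be assigned with certainty.

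**Figure D4:**
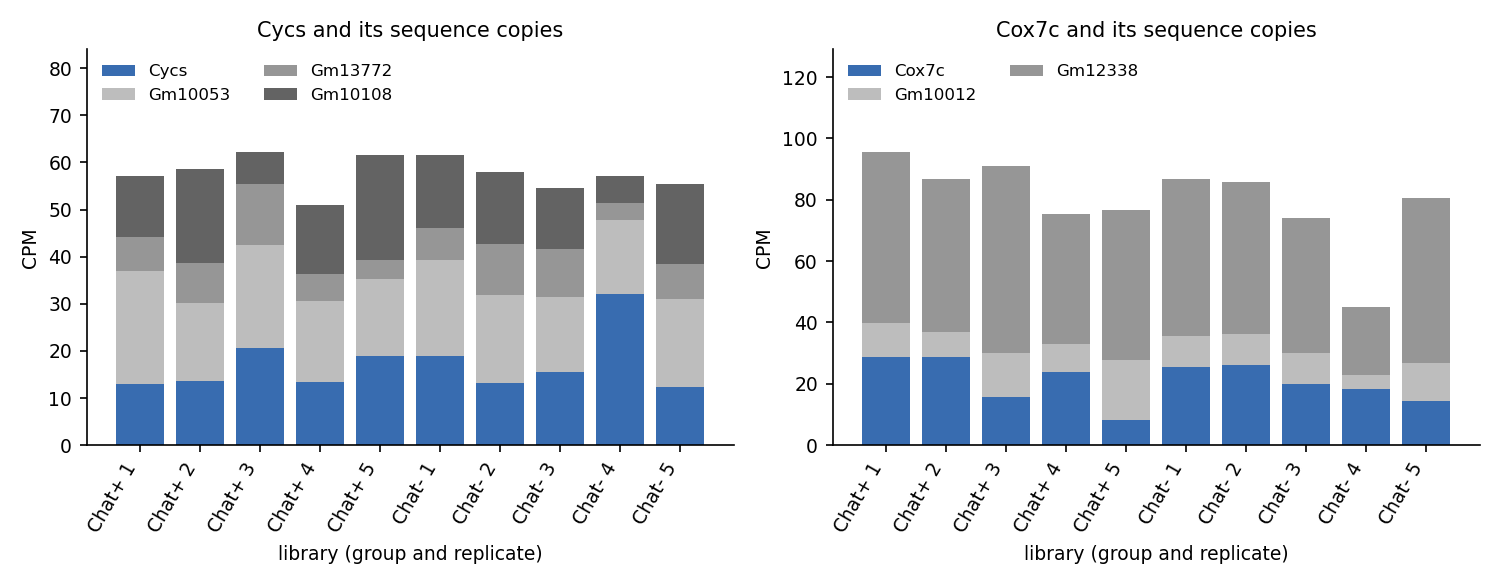
CPM of Cycs with 3 sequence copies (left) and of Cox7c with 2 (right) in each library, stacked; blue is the member and grey its copies. The Cycs stacks lie between 51.0 and 62.2 CPM although Cycs alone runs from 12.4 to 32.1, and the Cox7c stack of Chat- replicate 4 is the lowest at 45.2 CPM.

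Within the library Chat- replicate 4 the nuclear members were low as a class, but unevenly by complex. It was the lowest of the 10 libraries for 50 of the 88 nuclear members (56.8%), where it was lowest for 31.6% of all genes and for 35.8% of genes with a mean of at least 5 CPM. The median log2 difference from the mean of the other 4 Chat- libraries was -0.37, against -0.16 over genes with a mean of at least 5 CPM, and 69 of 88 were below. The median was -0.60 for complex I (30 of 44 lowest there), -0.74 for complex II (4 of 4), -0.31 for complex III (4 of 8), -0.08 for complex IV (4 of 13) and -0.16 for complex V (8 of 18). Of the 7 core subunits of complex I, 6 were lowest there. Being 1 library, it gives no test, and what set it apart was not tested.

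The lowest members relative to the other Chat- libraries, named after their values were seen, all belong to complex I. Ndufaf8 (ENSMUSG00000078572, chr11:120098928-120100705) was at 1.21 CPM there and at 6.39 to 16.8 CPM in the other 9 libraries, a log2 difference of -3.29 from the other Chat- libraries. Ndufaf5 was at 2.09 CPM there and at 7.83 to 11.99 CPM elsewhere (-2.14). The proteins of these 2 genes work as partners in complex I assembly, Ndufaf8 stabilising Ndufaf5, which modifies a core subunit. Ndufs6, a zinc-binding accessory subunit, was at 7.29 CPM there and at 22.8 to 38.7 CPM elsewhere (-2.23). Ndufa13 and Ndufb2, accessory subunits of the membrane arm, were at 22.3 and 6.32 CPM there, with log2 differences of -1.59 and -1.59. For 4 of 88 nuclear members that library was the highest, Cycs, Cox5a, Atp5g2 and Atp5k, and for all 13 mt- members, where it was highest for 22.1% of all genes. Across genes, which are not independent replicates and share this 1 library, the log2 difference had a Spearman correlation of -0.45 with transcript GC content and 0.21 with transcript length over 10117 genes, and of -0.19 and -0.15 over the 88 nuclear members. Measured in the same way against the other libraries of their own group, Chat+ replicates 3 and 5 also had a negative correlation with GC content over these genes, -0.30 each. These are the Chat+ libraries with the highest mt- sums. The 7 other libraries had a positive one, 0.19 to 0.36. Among the 7 was Chat- replicate 5 (0.20), although its mt- sum of 36790.3 CPM was above that of Chat+ replicate 3 (34497 CPM). Deviations within a group offset each other, so opposite signs are partly built in and do not set libraries apart.

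**Figure D5:**
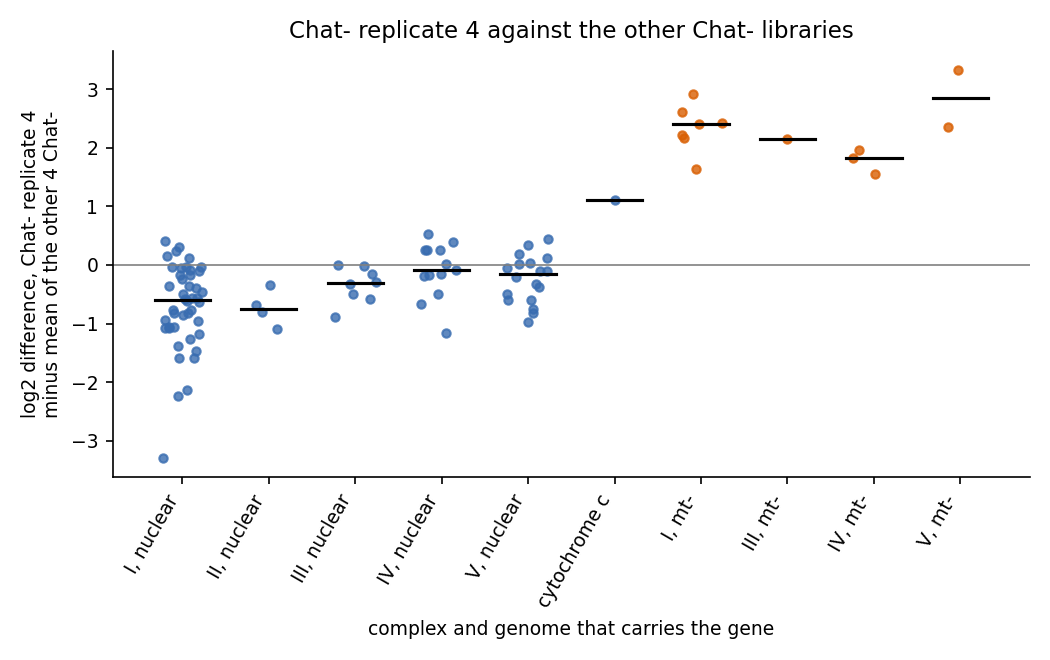
Log2 difference between Chat- replicate 4 and the mean of the other 4 Chat- libraries for each member, by complex and genome (blue nuclear, orange mt-); black lines are medians. The mt- members lie between 1.56 and 3.32, the nuclear complex I genes reach down to -3.29 with a median of -0.60, and Cycs lies at 1.11.

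The spread between libraries was otherwise small for the abundant nuclear subunits. Over the 9 libraries other than Chat- replicate 4, the highest library was a median of 1.45 times the lowest for the 88 nuclear members and 1.91 times for the 13 mt- members. With all 10 libraries these medians were 1.76 and 6.06. Atp5a1 varied least, with a coefficient of variation of 4.54% over the 9, and Sdhb was at 5.45%. Cox6b2 (75.8%), Cox7c (33.5%) and Ndufaf2 (29.5%) varied most, the first near the detection limit and Cox7c with its copies.

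The nuclear members are known for short promoters that hold sites of NRF1, of the ETS factor GABPA and of YY1, which are known to regulate many respiratory genes together. Windows of 250 bases before to 50 after the start, from RefSeq (GRCm38.p6), were found for 74 of the 88 members, as 79 windows, and both strands were searched. The NRF1 core GCATGCGC was in 13 windows (16.5%), against 2.71% of all 32851 windows. The ETS motif CCGGAAG was in 18 (22.8%, against 8.86%) and the YY1 motif AAGATGGCG in 8 (10.1%, against 1.40%). CCAAT was in 34 (43.0%), near the 37.4% of all windows. The end of CCGGAAG and the start of AAGATGGCG share the letters AAG, so 1 stretch can match both, and a match describes the window, not a site in use. The windows of Cycs and Ndufaf8 are shown because these 2 members lay at the opposite ends among nuclear members in Chat- replicate 4, with all matches in capitals. The Cycs window (chr6:50566520-50566819, minus strand) holds GCATGCGC and CCAAT, and the Ndufaf8 window (chr11:120098684-120098983, plus strand) holds 4 CCAAT matches, CCGGAAG and AAGATGGCG. 
Cycs promoter: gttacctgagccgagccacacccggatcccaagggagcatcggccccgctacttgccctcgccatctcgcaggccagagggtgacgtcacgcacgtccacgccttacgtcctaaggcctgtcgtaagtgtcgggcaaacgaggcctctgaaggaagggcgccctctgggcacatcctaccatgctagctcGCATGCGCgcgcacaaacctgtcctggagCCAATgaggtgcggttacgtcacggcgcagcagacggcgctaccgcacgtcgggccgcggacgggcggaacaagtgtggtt
Ndufaf8 promoter: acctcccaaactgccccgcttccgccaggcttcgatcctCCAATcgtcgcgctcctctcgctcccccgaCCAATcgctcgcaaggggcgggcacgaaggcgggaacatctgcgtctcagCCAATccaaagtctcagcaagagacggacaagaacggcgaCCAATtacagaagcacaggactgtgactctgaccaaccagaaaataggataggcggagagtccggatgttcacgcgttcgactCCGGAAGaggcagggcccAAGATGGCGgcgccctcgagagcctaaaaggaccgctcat

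Genes that build, express and regulate the chain without being members gave no call either. Of 45 genes for the complex III subunit Cyc1 and for assembly factors of the complexes, 0 passed with limma and 2 had an unadjusted p under 0.05, both higher in Chat+, with 28 of 45 (62.2%) higher and a median log2 difference of 0.07. These counts lie near those of all genes, of which 4.51% had such a p and 57.0% were higher. Bcs1l, which inserts the Rieske protein into complex III, was listed at 15.8, 16.4, 15.8, 11.99 and 16.6 CPM in Chat+ and 11.95, 11.3, 11.7, 5.39 and 9.18 CPM in Chat-. All Chat+ libraries were above all Chat- libraries, as in 1.12% of all genes, and the log2 difference was 0.67 (SE 0.23, adjusted p = 0.874) with limma and 0.47 without Chat- replicate 4. Cox16, an assembly factor of complex IV, had a log2 difference of 0.51 (SE 0.22, adjusted p = 0.999) with limma, and 0.30 without Chat- replicate 4. Without Chat- replicate 4, 19 of the 45 (42.2%) were higher, with a median of -0.03, where 49.6% of all genes were higher.

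Of 39 genes for the transcription, RNA handling and copying of mitochondrial DNA, 0 passed and 0 had an unadjusted p under 0.05 with limma, 25 (64.1%) were higher and the median was 0.05 (22 and 0.03 without Chat- replicate 4). The members with the smallest p, Fastkd5, which processes mitochondrial RNA, and Mgme1, a mitochondrial exonuclease, had log2 differences of -0.33 (SE 0.21, adjusted p = 0.999) and -0.35 (SE 0.24, adjusted p = 0.999) with limma, and -0.21 and -0.32 without Chat- replicate 4. Of 13 listed regulators of nuclear respiratory genes, 0 passed, 1 had an unadjusted p under 0.05 and 8 (61.5%) were higher, where 4.51% of all genes had such a p and 57.0% were higher (7 were higher without Chat- replicate 4, where 49.6% of all genes were). That one was Myc, a growth regulator that also acts on nuclear respiratory genes, listed at 62.6, 52.1, 49.2, 50.5 and 95.4 CPM in Chat+ and 41.7, 39.5, 40.1, 28.7 and 53.7 CPM in Chat-. Chat+ replicate 5 was the highest, Chat- replicate 5 overlapped Chat+, and the log2 difference was 0.58 (SE 0.20, adjusted p = 0.873) with limma and 0.46 without Chat- replicate 4. Tfam, which packages and transcribes mitochondrial DNA and had the next smallest p of that list, was listed at 105, 113, 128, 124 and 111 CPM in Chat+ and 118, 115, 119, 73.1 and 111 CPM in Chat-. Chat- replicate 4 was the lowest for it, while its mt- transcripts were the highest, and the log2 difference between groups was 0.14 (SE 0.14, adjusted p = 0.999) with limma, or 0.0064 without that library.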

How the data were processed

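RNA of sorted mature B cells (5 Chat+ and 5 Chat- libraries) was extracted on columns and made into directional libraries, per the labels' protocols. The submitters' processing notes name cutadapt 2.6 and Salmon 0.14.2 and the build GRCm38.p6. Not given in the sources used here are the transcript set and strand setting of Salmon. The deposited values are log2 values: with the shared lowest value (-3.1228, an offset of 0.1148 CPM) removed, each library sums to 1000000 CPM. Whole reads could not be recovered (18.2% to 42.5% of values under 3 CPM were whole within 0.001), so no count model was used. limma 3.58.1 (R 4.3.3; lmFit, eBayes with a mean-variance trend, group as the only term, two-sided) was run on the log2 values of all 14450 genes as deposited, with Benjamini-Hochberg adjustment and a threshold of 0.05. It was also run on simulated data, which held no outlying library and no set difference as small as those of the members. That run does not show how the test does for these members. The test had been planned for linear values with a pseudocount as well. Group means, SDs and sums use CPM without the offset, with no test over sums. Symbols of 14391 genes and positions came from GENCODE M21; the length per gene is that of its principal transcript. Copies were found as rows with at least 50% of their 31-base words in mt- transcripts. Members named are every mt- gene, the 6 nuclear members with the smallest p in each direction, fixed subunits of each complex and tissue forms, and 2 genes of each other list; others are marked as chosen after their values were seen. The members and lists were chosen with earlier results of these data known. The labels give no batch. Alternatives tried were leaving out each library, the replicate block, the nuclear total, TMM factors, a pseudocount of 1 CPM, a mean of at least 5 CPM, quality weights, no trend and medians. Adding the nuclear copies, and the nuclear total without Chat- replicate 4, were chosen after seeing the data.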

Additional observations from a re-analysis of the deposited data

Results flagged for a closer look

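In groups of 5 libraries, a library was marked as far from the others where its gap to the nearest one, divided by the range of the group, was above 0.71 (Dixon). Chance marks about 1 in 20 groups, which is 4.4 of the 88 groups examined here, and 24 were marked, 21 of them for Chat- replicate 4. These 21 are not separate, since they come from 1 library and 1 total. That library was high for the summed mt- level (ratio 0.866) and for the mt- sum over the nuclear sum (0.904). Among the single mt- genes it was high for mt-Nd1 (7874 CPM against 1447 to 2309.6 CPM, ratio 0.866), mt-Nd2 (6627 CPM against 812 to 1595 CPM, ratio 0.865), mt-Nd3 (807 CPM against 127 to 185 CPM, ratio 0.915), mt-Nd4 (9208 CPM against 1450.0 to 2041 CPM, ratio 0.924), mt-Nd4l (1133 CPM against 115 to 257 CPM, ratio 0.861), mt-Nd5 (5739 CPM against 947 to 2136 CPM, ratio 0.752) and mt-Nd6 (55.9 CPM against 17.6 to 18.5 CPM, ratio 0.978). It was also high for mt-Cytb (11639.9 CPM against 2161 to 3448 CPM, ratio 0.864), mt-Co1 (19107 CPM against 5161 to 9047 CPM, ratio 0.721), mt-Co2 (16188 CPM against 4176 to 5059.8 CPM, ratio 0.926), mt-Co3 (15084 CPM against 3571 to 4544 CPM, ratio 0.915), mt-Atp6 (22556 CPM against 3660.0 to 5722 CPM, ratio 0.891) and mt-Atp8 (2684 CPM against 216 to 427 CPM, ratio 0.915). It was low for Ndufv1 (25.6 CPM against 68.9 to 72.3 CPM, ratio 0.928), Sdha (131 CPM against 275 to 284 CPM, ratio 0.941), Sdhb (41.9 CPM against 69.97 to 77.1 CPM, ratio 0.798), Uqcrc1 (103 CPM against 139 to 149 CPM, ratio 0.783), Atp5a1 (285 CPM against 492 to 536 CPM, ratio 0.826) and Atp5b (281 CPM against 512 to 603 CPM, ratio 0.719). Of the 3 others, Chat+ replicate 4 was low for Atp5e (109.5 CPM against 133 to 139 CPM, ratio 0.788), Chat- replicate 5 was high for Atp5c1 (126 CPM against 102 to 108 CPM, ratio 0.745), and the same library was low for Atp5o (ENSMUSG00000116933) (14.9 CPM against 17.6 to 18.6 CPM, ratio 0.737).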

How the results depend on the processing

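0 of 101 members passed with limma under any of the 19 fits, and 0 to 3 had an unadjusted p under 0.05. The smallest adjusted p of any member was 0.233, with library quality weights. In that fit 105 of 14450 genes passed and 1310 had an unadjusted p under 0.05, against 3 of the members. In the main fit 1 gene passed and 651 had such a p, against 2 of the members. Of 737 values of the 41 named members under 18 alternatives, 49 changed sign, over 16 members, 9 of which changed sign without Chat- replicate 4; 0 passed. The mt- sum over the nuclear sum, Chat+ over Chat-, was 0.497 with all libraries, 0.432 to 0.969 with 1 library left out, and 0.969 relative to the nuclear total without Chat- replicate 4; that library gave the value of 0.969. Without Chat- replicate 4 the median of the nuclear complex II genes changed sign from 0.09 to -0.03 and that of the 45 genes for Cyc1 and assembly factors from 0.07 to -0.03. The cause of the sign changes was not tested. Relative to the nuclear total without Chat- replicate 4 the log2 differences that changed sign were 0.064 (mt-Nd5), 0.32 (mt-Nd6), 0.013 (mt-Co2), 0.075 (Cycs), -0.23 (Ndufv1), -0.14 (Sdha), -0.0068 (Sdhb), -0.096 (Uqcrc1) and -0.0027 (Atp5b). With quality weights they were 0.13 (mt-Nd6), 0.059 (Cox7c), -0.074 (Ndufv1), -0.040 (Sdha), -0.037 (Uqcrc1) and -0.0071 (Cox8a), with TMM scaling -0.040 (Uqcrc1), -0.026 (Cox5a) and -0.0058 (Cox8a), and relative to the nuclear total -0.025 (Uqcrc1) and -0.011 (Cox5a). Leaving out 1 library gave -0.59 to 0.064 (mt-Nd5), -0.11 to 0.33 (mt-Nd6), -0.48 to 0.014 (mt-Co2), -0.27 to 0.075 (Cycs), -0.10 to 0.021 (Uqcrq), -0.24 to 0.20 (Cox7c), -0.14 to 0.054 (Atp5o (ENSMUSG00000116933)), -0.23 to 0.19 (Ndufv1), -0.14 to 0.15 (Sdha), -0.0066 to 0.21 (Sdhb), -0.096 to 0.041 (Uqcrc1), -0.039 to 0.097 (Cox5a), -0.0025 to 0.27 (Atp5b), -0.096 to 0.51 (Cox6b2), -0.0043 to 0.12 (Cox7a2) and -0.014 to 0.14 (Cox8a). Replicate numbers are shared by the labels of both groups, and the labels do not say what they mark. Deviations of same-numbered libraries from their group means correlated at 0.32, 0.22 and 0.35 for replicates 1, 2 and 5, each of which matched its own number best in both groups, and at -0.095 and -0.16 for replicates 3 and 4. Same-numbered libraries were thus each other's best match in 3 of 5 numbers. Whether the numbers mark pairs was not tested, and they were not taken as pairs. With the replicate block 0 members passed, and 6 of 14450 genes did against 1 without it. Depth limits Cox6b2, listed at a few CPM.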
